A study of Mus musculus with 6 samples.

Results

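The colony-stimulating factors and their receptors were examined in macrophages challenged with the fungus Candida albicans, by comparing mice lacking progranulin (PGRN KO) with wild type (WT) mice. The members were chosen by gene name as Csf1, Il34, Csf2 and Csf3, which encode the ligands, and Csf1r, Csf2ra, Csf2rb, Csf2rb2 and Csf3r, which encode the receptor chains. They make up 9 of the 54532 genes measured. Progranulin is a secreted glycoprotein encoded by Grn. RNA sequencing of polyadenylated transcripts was carried out in 3 WT libraries (replicates 1, 2 and 3) and 3 PGRN KO libraries (replicates 4, 5 and 6). By the labels, both groups were macrophages of the peritoneal cavity from C57BL/6J mice, plated at 2000000 cells per well and exposed for 6 hours to live C. albicans, with 1 fungal cell for each macrophage. The knockout was a deletion in the whole animal on a C57BL/6 background, and the WT mice came from another supplier than the PGRN KO mice, matched for sex and age, so that genotype and origin cannot be told apart. The age of the mice is not given in the labels. Unchallenged cells were not analysed here. The study's text calls the sequenced cells bone marrow-derived macrophages, which it grew in medium conditioned by L929 cells, a source of CSF1, and gives another ratio of fungus to cells. The labels name no such growth factor, and they were followed here, but the source of the cells remains unsettled for a comparison of CSF genes.

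CSF1 (M-CSF) and IL-34 are alternative ligands of the tyrosine kinase receptor CSF1R, on which the survival of most tissue macrophages depends. CSF2 (GM-CSF) binds an alpha chain encoded by Csf2ra, which pairs with a common beta chain encoded by Csf2rb, and signals through JAK2 and STAT5. The mouse carries a second beta chain gene, Csf2rb2, whose product serves the IL-3 receptor. CSF3 (G-CSF) acts through CSF3R and drives the production and mobilisation of neutrophils. Activated macrophages themselves make CSF2 and CSF3, whose mRNAs are short-lived because of AU-rich elements in their 3′ ends.

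The libraries held 15996786 to 17551619 counted fragments. Grn checked the labels, with 323, 337 and 325 FPKM (counted fragments divided by gene length and library size) in WT replicates 1, 2 and 3 against 0.0166, 0 and 0.0167 FPKM in the knockout libraries, replicates 4, 5 and 6. PGRN KO replicate 6 stood apart from the other knockout libraries, with a Pearson correlation across genes of 0.971 and 0.972 with PGRN KO replicates 4 and 5, which correlated at 0.992 with each other. Its deviations from the mean of the 6 libraries ran with gene length (Spearman's rho -0.47 across 8882 genes, against 0.15 to 0.24 in the other libraries, a description across genes). Values without it are therefore given for each tested colony-stimulating factor and receptor gene, for the list totals and, at the end, for the ratios. All 7 macrophage markers on the list used were at a mean of at least 1 FPKM, and their summed level ranged from 7091 to 7423 FPKM in WT and from 7235 to 9725 FPKM in PGRN KO. Lyz2 made up most of this sum (5745 ± 98.2 FPKM in WT), and the list holds Csf1r itself. In PGRN KO Lyz2 was at 6666 ± 1274 FPKM, with 8135 FPKM in PGRN KO replicate 6. Among the other markers, the libraries of the 2 genotypes overlapped for Cd68 (1220 ± 62.8 and 1185 ± 138 FPKM), Adgre1 (186 ± 8.60 and 176 ± 13.5 FPKM) and Fcgr1 (7.95 ± 0.405 and 6.78 ± 2.90 FPKM). They did not for Itgam (50.3 ± 0.381 and 42.9 ± 1.95 FPKM) and Mertk (1.41 ± 0.229 and 3.24 ± 0.514 FPKM). Of the 5 markers of large peritoneal macrophages 3 reached a mean of 1 FPKM, with sums of 19.8 to 23.8 and 19.7 to 24.0 FPKM. Prg4 made up most of these sums, at 14.2 ± 1.82 and 12.7 ± 2.04 FPKM. Icam2 was higher in every PGRN KO library, at 3.10 ± 0.163 and 5.10 ± 0.526 FPKM. The defining factor Gata6 was at 3.95 ± 0.264 and 4.50 ± 0.621 FPKM (SD, n = 3 each), whereas Timd4 was near 0.

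Of the 9 genes, 8 had a mean of at least 1 FPKM and were tested with limma together with all other such genes, 8882 in total, with Benjamini-Hochberg adjustment over all of them. Il34 was not tested. After challenge, Csf1 was significantly higher in PGRN KO, while Csf1r, Csf2rb, Csf2rb2 and Csf3 were significantly lower. Csf2, Csf2ra and Csf3r did not pass an adjusted p of 0.05. Thus 5 of the 8 tested genes passed, where 24.2% of all tested genes did. In the higher direction 1 of 8 passed, against 10.4% of all tested genes, and in the lower direction 4 of 8 passed, against 13.8%. The WT and PGRN KO values did not overlap for 7 of the 8 genes, all but Csf2, and for 48.8% of all tested genes. The median log2 fold change was -0.34 over the 8 genes and -0.03 over all tested genes. Together the 9 genes took 0.646% to 0.660% of all counted fragments in WT libraries and 0.458% to 0.487% in PGRN KO libraries. Most of these fragments came from Csf3, Csf2rb and Csf2rb2, with 47388, 37268 and 15864 of 113291 in WT replicate 1, where Csf1 had 1161. The share thus mainly reflects those genes. The balance of directions over all genes depended on the scaling between libraries, since 42.8% of the called genes were higher with the deposited scaling, 60.3% on a scale where FPKM sum to the same total (TPM scale) and 62.9% with the sum of fragments as library size. The direction of each of the 5 called genes was kept under both other scalings, but on the TPM scale 1 gene in place of 4 passed as lower (Csf3), and with the sum of fragments 3 did.

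**Figure D1:**
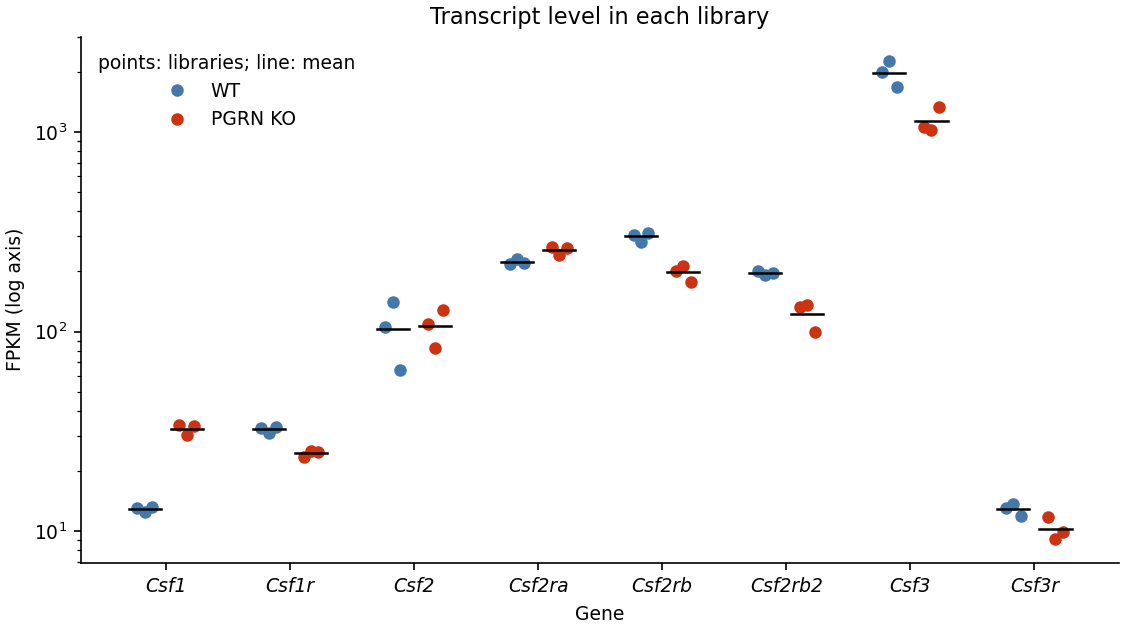
FPKM on a log axis (y) of the 8 measured genes (x) in each of 3 WT libraries (blue) and 3 PGRN KO libraries (red), with the black line at the mean. The PGRN KO values of Csf1 lie at 30.2 to 34.1 FPKM, above every WT value, those of Csf1r, Csf2rb, Csf2rb2 and Csf3 lie below every WT value, and those of Csf2 overlap. Il34, at 0 in all 6 libraries, cannot be drawn on a log axis.

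Ligands of CSF1R were examined first. Csf1 (ENSMUSG00000014599, GRCm38 chromosome 3, 107741048 to 107760469, minus strand) had 13.1, 12.5 and 13.2 FPKM in WT replicates 1, 2 and 3 and 34.1, 30.2 and 33.6 FPKM in the knockout libraries, replicates 4, 5 and 6. Every knockout library lay above the highest WT library, and the spread within each group was small beside the gap. In the mean, 12.9 ± 0.392 FPKM in WT became 32.6 ± 2.13 FPKM in PGRN KO (SD, n = 3 each), a 2.52-fold increase. The log2 fold change on the log2(FPKM + 1) scale was 1.27 ± 0.09 (SE; 95% confidence interval 1.06 to 1.47), with a limma adjusted p of 0.00119. Without PGRN KO replicate 6 it was 1.25 with an adjusted p of 0.000360. By the size of its log2 fold change Csf1 stood at rank 104 of the 8882 tested genes. The values rested on 975 to 1256 fragments per WT library and 3017 to 3117 per PGRN KO library. Csf1 is among the genes that the study picked from these same libraries, so its direction here is not independent evidence. None of the 31-base stretches of its annotated transcripts occurs in another gene's transcripts.

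Il34 (ENSMUSG00000031750, chromosome 8, 110741829 to 110805924, minus strand) was at 0 fragments in all 6 libraries. A count of 0 allows up to 3 fragments, which is 0.0809 to 0.104 FPKM depending on the library, so that Csf1 was the ligand of CSF1R detected at this depth. The floor covers counting error only.

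The promoter of Csf1 is shown because it belongs to the gene with the largest difference of the 9, and those of Csf2ra and Csf2rb2 because of their opposite signs of difference, of which that of Csf2ra did not pass the test. Each is the 250 bases before the RefSeq start on GRCm38.p6, 5′ to 3′ on the strand of the gene, with motif matches in capitals. Promoter windows were examined for 5 of the 9 genes, and that of Csf1r was not examined here.
Csf1 (chr3:107760470-107760719, minus strand): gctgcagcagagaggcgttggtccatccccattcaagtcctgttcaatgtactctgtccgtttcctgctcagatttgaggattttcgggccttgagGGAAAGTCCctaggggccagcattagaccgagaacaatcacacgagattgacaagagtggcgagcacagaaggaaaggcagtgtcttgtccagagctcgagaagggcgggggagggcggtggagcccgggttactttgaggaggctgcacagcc
Csf2ra (chr19:61228419-61228668, minus strand): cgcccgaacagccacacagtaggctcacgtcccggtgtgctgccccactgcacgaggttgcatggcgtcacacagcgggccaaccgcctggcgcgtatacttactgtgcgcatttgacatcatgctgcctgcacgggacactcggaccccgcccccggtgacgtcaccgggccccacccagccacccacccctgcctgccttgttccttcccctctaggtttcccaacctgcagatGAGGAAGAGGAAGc
Csf2rb2 (chr15:78305722-78305971, minus strand): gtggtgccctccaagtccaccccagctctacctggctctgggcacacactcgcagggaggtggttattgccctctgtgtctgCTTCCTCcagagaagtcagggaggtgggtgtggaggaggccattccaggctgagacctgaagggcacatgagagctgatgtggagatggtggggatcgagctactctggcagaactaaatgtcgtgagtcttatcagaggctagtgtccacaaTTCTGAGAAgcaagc

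Both strands were searched for 5 motifs. The Csf1 window holds 1 match to an NF-kB motif (GGAAANTCC), 154 bases before the start, a motif found in 1.07% of 32851 promoter windows of the same length. The Csf2ra window holds 2 overlapping matches to the core of PU.1 sites (GAGGAAG), 14 and 8 bases before the start. That of Csf2rb2 holds 1 on the other strand, 168 bases before the start, and 10.6% of windows hold this motif. The Csf2rb2 window also has 1 STAT motif (TTCNNNGAA), 15 bases before the start, as 7.02% of windows do. None of these 3 windows held the interferon response element core (GAAANNGAA, in 7.13% of windows) or the C/EBP motif (TTGCNNAA, in 9.56%). Of the windows examined but not shown, that of Csf2 held 1 match to each, 199 and 145 bases before the start. That of Csf3r held 1 PU.1 core, 86 bases before the start. A match describes letters only and not binding.

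The receptor for CSF1 and IL-34 moved the opposite way to Csf1. Csf1r (ENSMUSG00000024621, chromosome 18, 61105572 to 61132149, plus strand) was at 33.0, 31.0 and 33.4 FPKM in WT against 23.6, 25.3 and 25.0 FPKM in PGRN KO. The groups did not overlap, and the mean fell from 32.5 ± 1.29 to 24.7 ± 0.905 FPKM, which is 75.9% of WT. The log2 fold change was -0.38 ± 0.08 (SE; 95% confidence interval -0.58 to -0.19), with a limma adjusted p of 0.0178. It was -0.39 without PGRN KO replicate 6 (adjusted p 0.00425). The direction was kept under every alternative tried, but the call was not. The adjusted p was 0.106 on the TPM scale, 0.0856 with the sum of fragments as library size, and 0.101, 0.0616, 0.0803 and 0.0593 without WT replicate 1, 2 or 3 or PGRN KO replicate 4. Exons of Csf1r share 873 bases with Hmgxb3 on the opposite strand, and the sources used here do not say whether counting used strand. Hmgxb3 was at 11.7 ± 0.800 FPKM in WT against 8.20 ± 2.00 FPKM in PGRN KO, and without strand the reads of the shared bases cannot be told apart.

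Since Csf1 and Csf1r differed in opposite directions, their ratio was compared within each library, where scaling between libraries has no part. The FPKM of Csf1 was 0.398, 0.403 and 0.395 times that of Csf1r in WT replicates 1, 2 and 3. It was 1.44, 1.19 and 1.35 times that of Csf1r in PGRN KO replicates 4, 5 and 6. The order of ligand and receptor transcript was thus reversed between the genotypes, with the receptor above the ligand in every WT library and below it in every PGRN KO library. The mean ratio was 0.398 ± 0.00401 in WT against 1.33 ± 0.127 in PGRN KO (SD, n = 3 each), and the mean log2 ratio differed by 1.73 ± 0.08 (SE), a 3.32-fold difference. An exact two-sided permutation test returned p = 0.1, the lowest possible with 3 against 3 libraries, and 0.167 after Benjamini-Hochberg adjustment over 5 ratios.

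**Figure D2:**
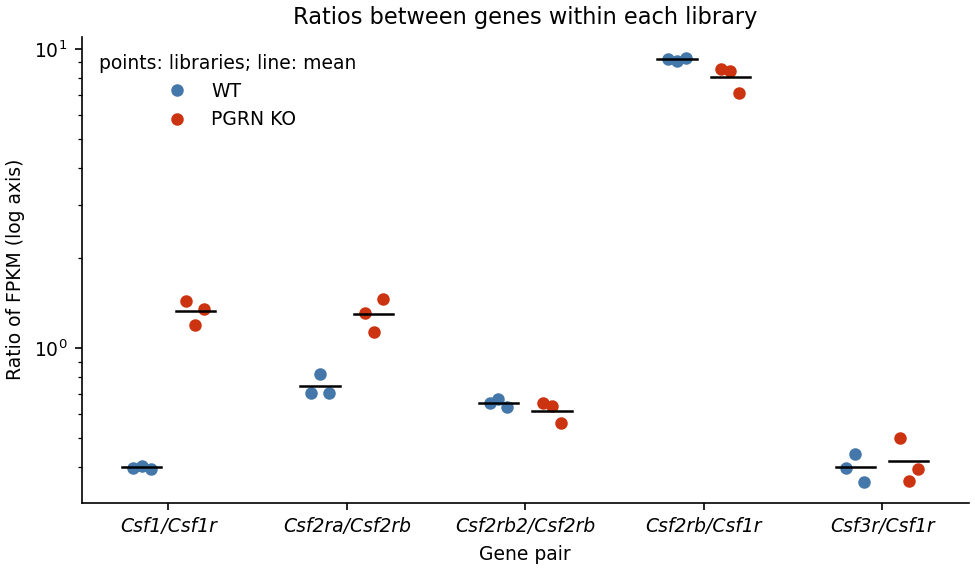
Ratio of FPKM between a pair of genes within each library, on a log axis (y), for 5 pairs (x), in 3 WT (blue) and 3 PGRN KO (red) libraries, with the black line at the mean. The Csf1/Csf1r ratio lies at 0.395 to 0.403 in WT and 1.19 to 1.44 in PGRN KO, and the Csf2ra/Csf2rb ratio also passes 1, whereas the points of Csf2rb2/Csf2rb and Csf3r/Csf1r overlap between groups.

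In the GM-CSF system, the ligand varied between libraries of 1 genotype. Csf2 (ENSMUSG00000018916, chromosome 11, 54247271 to 54249667, minus strand) was at 105, 140 and 64.5 FPKM in WT against 109, 82.3 and 128 FPKM in PGRN KO. WT replicates 2 and 3 were the highest and lowest of all 6 libraries, and the groups overlapped throughout. The means were 103 ± 37.7 and 107 ± 23.1 FPKM, with a log2 fold change of 0.09 ± 0.29 (SE; 95% confidence interval -0.60 to 0.78) and a limma adjusted p of 0.837. The interval holds differences of either sign, and the direction turned when WT replicate 3 (log2 fold change -0.21) or PGRN KO replicate 6 (-0.05) was left out. Csf2 shares 96 exonic bases with the antisense gene Gm12223, which had 1 or 2 fragments per library.

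Of the receptor chains for GM-CSF, both beta chain genes fell and the alpha chain gene did not pass. Csf2ra (ENSMUSG00000059326, chromosome 19, 61224402 to 61228418, minus strand), which gives the receptor its specificity for GM-CSF, was at 217, 231 and 220 FPKM in WT against 265, 242 and 261 FPKM in PGRN KO. Every PGRN KO value lay above every WT value, but the difference between 223 ± 7.10 and 256 ± 12.3 FPKM did not pass. The log2 fold change was 0.20 ± 0.09 (SE; 95% confidence interval -0.01 to 0.41), with a limma adjusted p of 0.146. Without PGRN KO replicate 6 it was 0.19 (adjusted p 0.0529). It passed with the sum of fragments as library size (adjusted p 0.0389), with sample quality weights (0.0176) and with a length correction without PGRN KO replicate 6 (0.0295), whereas with that correction and all libraries the log2 fold change was 0.11 (0.432).

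Csf2rb (ENSMUSG00000071713, chromosome 15, 78325752 to 78353847, plus strand), the signalling chain shared by the receptors for GM-CSF, IL-3 and IL-5, was at 306, 282 and 311 FPKM in WT. The PGRN KO libraries had 202, 214 and 178 FPKM, lower than in any WT library. The mean fell from 300 ± 15.5 to 198 ± 18.2 FPKM, which is 66.0% of WT. The log2 fold change was -0.60 ± 0.11 (SE; 95% confidence interval -0.85 to -0.35), with a limma adjusted p of 0.00987. Without PGRN KO replicate 6 it was -0.52 (adjusted p 0.00207), while the adjusted p was 0.0514 on the TPM scale and 0.0629 without WT replicate 1. Csf2rb has the longest gene model of the 9, with 7277 bases, and after correction for gene length without PGRN KO replicate 6 the log2 fold change was -0.49 (adjusted p 0.00300).

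Csf2rb2 (ENSMUSG00000071714, chromosome 15, 78282507 to 78305721, minus strand), the neighbouring beta chain gene, was at 200, 191 and 197 FPKM in WT against 132, 136 and 99.6 FPKM in PGRN KO. The WT libraries lay close together and PGRN KO replicate 6 was the lowest of all. The mean fell from 196 ± 4.52 to 123 ± 20.0 FPKM, which is 62.6% of WT, with a log2 fold change of -0.69 ± 0.13 (SE; 95% confidence interval -1.0 to -0.37) and a limma adjusted p of 0.0137. Without PGRN KO replicate 6 the log2 fold change was -0.54 (adjusted p 0.000936). The adjusted p was 0.0572 on the TPM scale and 0.0685, 0.0557 and 0.0564 without WT replicate 1, 2 or 3.

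The beta chain genes are near copies. Their coding sequences, 2688 bases for Csf2rb and 2634 for Csf2rb2, are identical at 2503 of 2628 aligned bases (95.2%), with a longest identical run of 242 bases. Of the 31-base stretches in their annotated transcripts, 18.8% of those of Csf2rb occur in Csf2rb2 and 28.6% of those of Csf2rb2 occur in Csf2rb. Their most divergent 60 bases of coding sequence are shown, since only reads over differing bases tell the genes apart, with the 13 mismatches in capitals.
Csf2rb (chr15:78338893-78338952, GRCm38, plus strand): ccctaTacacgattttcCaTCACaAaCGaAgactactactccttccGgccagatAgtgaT
Csf2rb2 (chr15:78294379-78294438, GRCm38, minus strand): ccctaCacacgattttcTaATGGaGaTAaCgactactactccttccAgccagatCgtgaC

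How counting assigned reads that fit both genes is not stated in the sources used here, so the separate values of the beta chains are uncertain. Counted together, they had 3112 ± 131 fragments per 1000000 of the deposited library size in WT against 2023 ± 226 in PGRN KO (SD, n = 3 each), or 0.650 of the WT level. The summed level in each PGRN KO library, 1768 to 2201, was less than in each WT library, 2961 to 3199. The ratio of Csf2rb2 to Csf2rb was 0.654, 0.677 and 0.632 in WT and 0.653, 0.637 and 0.559 in PGRN KO, a log2 difference of -0.09 ± 0.08 (SE; exact permutation p = 0.4, adjusted 0.5).

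The alpha chain was also compared with the beta chain within each library. The FPKM of Csf2ra was 0.709, 0.817 and 0.708 times that of Csf2rb in WT replicates 1, 2 and 3 and 1.31, 1.13 and 1.46 times in PGRN KO replicates 4, 5 and 6. The alpha chain transcript was therefore the less abundant of the pair per length in each WT library and the more abundant in each PGRN KO library. The log2 ratio differed by 0.80 ± 0.13 (SE), a 1.74-fold difference with an exact permutation p of 0.1 (adjusted 0.167). The ratio of Csf2rb to Csf1r, both of which fell, was 9.27, 9.11 and 9.32 in WT and 8.56, 8.43 and 7.13 in PGRN KO, a log2 difference of -0.20 ± 0.09 (exact permutation p = 0.1, adjusted 0.167).

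Among the 9 genes the ligand of the G-CSF system had the highest transcript level in both genotypes. Csf3 (ENSMUSG00000038067, chromosome 11, 98701263 to 98703629, plus strand) was at 2005, 2282 and 1676 FPKM in WT against 1061, 1023 and 1339 FPKM in PGRN KO, and by mean level it stood at rank 32 of all genes. The lowest WT library lay above the highest PGRN KO library. The mean fell from 1987 ± 303 to 1141 ± 172 FPKM, which is 57.4% of WT. The log2 fold change was -0.80 ± 0.17 (SE; 95% confidence interval -1.19 to -0.41), with a limma adjusted p of 0.0160. Without PGRN KO replicate 6 it was -0.92 (adjusted p 0.00334). The call was lost without WT replicate 1 (adjusted p 0.0755), WT replicate 2 (0.0675) or PGRN KO replicate 4 (0.0561) and with no filter on low values (0.0715). None of the 31-base stretches of Csf3 occurs in another gene.

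Csf3r (ENSMUSG00000028859, chromosome 4, 126024550 to 126044440, plus strand), the receptor of CSF3, was at 13.1, 13.7 and 11.9 FPKM in WT against 11.8, 9.12 and 9.83 FPKM in PGRN KO. The groups did not overlap, but PGRN KO replicate 4 was only 0.173 FPKM below the lowest WT library. The difference between 12.9 ± 0.902 and 10.2 ± 1.37 FPKM did not pass, with a log2 fold change of -0.31 ± 0.11 (SE; 95% confidence interval -0.58 to -0.04) and a limma adjusted p of 0.0887. It was 0.0868 without PGRN KO replicate 6 and 0.0464 with sample quality weights. The ratio of Csf3r to Csf1r was 0.396, 0.442 and 0.357 in WT and 0.498, 0.360 and 0.393 in PGRN KO, a log2 difference of 0.06 ± 0.17 (SE; exact permutation p = 0.7, adjusted 0.7). Another annotated gene, AC105061.2, holds 19.9% of the 31-base stretches of Csf3r. The deposited values have no entry under that name, so its level is not known here. Neutrophils carry much Csf3r, and of the 9 neutrophil markers 1 (Mmp8) reached 1 FPKM, with Ly6g, Elane and Cxcr2 at 0 in all libraries and a summed level of 20.0 to 21.0 FPKM in WT against 17.2 to 21.5 FPKM in PGRN KO.

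**Figure D3:**
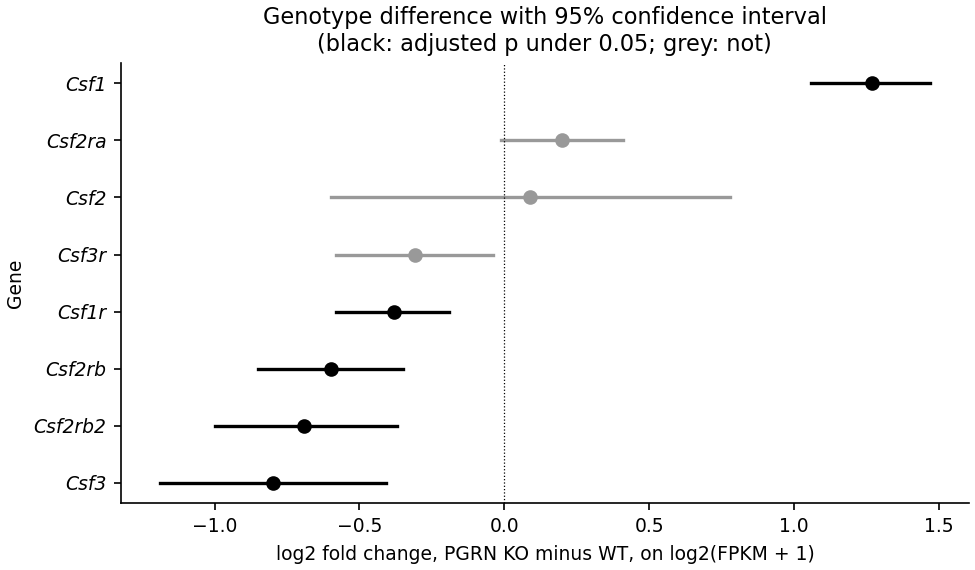
Log2 fold change, PGRN KO minus WT, on the log2(FPKM + 1) scale (x) for the 8 tested genes (y), with points at the limma estimate and lines for the 95% confidence interval. Black marks an adjusted p under 0.05, with Csf1 at 1.27 to the right of 0 and Csf1r, Csf2rb, Csf2rb2 and Csf3 at -0.38 to -0.80 to its left, and the interval of Csf2 is the widest.

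The 3′ untranslated regions of the genes were searched for ATTTA, a motif of AU-rich elements. The richest 30 bases of those of Csf2, Csf3 and Csf1 are shown with ATTTA in capitals, since the ligand transcripts differed in level and in spread.
Csf2 (chr11:54247329-54247358, GRCm38, minus strand): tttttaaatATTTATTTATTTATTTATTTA
Csf3 (chr11:98702984-98703013, GRCm38, plus strand): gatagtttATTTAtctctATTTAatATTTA
Csf1 (chr3:107741109-107741138, GRCm38, minus strand): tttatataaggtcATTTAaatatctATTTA

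Csf2 has 9 copies of ATTTA in 317 bases, and 5 copies of the overlapping form ATTTATTTA, which 6.13% of 20981 genes have at least once and 0.172% have at least 5 times. Csf3 has 6 copies of ATTTA in 669 bases and Csf1 has 4 in 2111 bases, both without ATTTATTTA. Il34 has 1 copy in 605 bases. Of the receptor genes, Csf1r has 3 copies in 1669 bases, and Csf2ra, Csf2rb, Csf2rb2 and Csf3r have none. The coefficient of variation of FPKM between WT libraries was 36.5% for Csf2, 15.3% for Csf3, 3.03% for Csf1 and 2.30% to 6.99% for the receptor chains. Between PGRN KO libraries it was 21.7% for Csf2, 15.1% for Csf3, 6.54% for Csf1 and 3.67% (Csf1r) to 16.3% (Csf2rb2) for the receptor chains, so that Csf3 was not set apart from these. Each is a description over 3 libraries. The share of all genes with ATTTA alone was not computed, and a link between these copies and the spread was not tested.

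The order of levels per length changed between the genotypes. In WT it ran Csf3, Csf2rb, Csf2ra, Csf2rb2, Csf2, Csf1r, Csf1, Csf3r and Il34, and the ranges over libraries were separate for all neighbours except Csf1 and Csf3r. In PGRN KO it ran Csf3, Csf2ra, Csf2rb, Csf2rb2, Csf2, Csf1, Csf1r, Csf3r and Il34, with overlapping ranges only for Csf2rb2 and Csf2. Csf2ra thus stood above Csf2rb, and Csf1 above Csf1r, in PGRN KO but not in WT.

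Genes that act around these ligands and receptors were described in 5 lists with 86 genes in all, of which 75 were tested. Of these, 6 passed as higher and 23 as lower, with a median log2 fold change of -0.25, which is 8.0% higher and 30.7% lower, where 10.4% and 13.8% of all tested genes were and their median was -0.03. Without PGRN KO replicate 6, 8 were higher and 38 lower, but the calls over all 8882 tested genes also rose, to 1438 higher and 2230 lower. Of the 29 called genes 14 passed under every alternative in which they were tested, and the other 15, namely Jak1, Stat5a, Syk, Ptpn6, Pim2, Egr1, Irf8, Maf, Il3ra, Adam17, Il4ra, Nfkb1, Zfp36l1, Zc3h12a and Elavl1, lost the call under 1 to 8 of them. Of the 26 receptor signalling genes 4 were higher, 4 lower and 18 did not pass (median log2 fold change -0.21). Over all tested genes 10.4% were higher and 13.8% lower. Among those higher by limma were Pik3cd (log2 fold change 0.67, adjusted p 0.00509), a catalytic subunit of PI3 kinase, the Janus kinase Tyk2 (0.62) and the phosphatase Ptpn6 (0.50). Lower were Plcg2 (-0.72), a phospholipase acting below CSF1R, the Janus kinase Jak1 (-0.62), the kinase Syk (-0.48) and Stat5a (-0.47), a STAT5 gene. The other STAT5 gene, Stat5b (0.02, limma adjusted p 0.875), and Jak2 (-0.13, limma adjusted p 0.576) did not pass. The most abundant genes that did not pass were the adaptor Tyrobp, with 414 ± 12.3 FPKM in WT against 488 ± 135 FPKM in PGRN KO, and Stat3, with 105 ± 3.56 and 91.9 ± 7.44 FPKM.

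Among the feedback and survival outputs of these receptors, 0 of 16 tested genes were higher and 5 were lower by limma, 11 did not pass, and the median was -0.23. At an unadjusted limma p under 0.05, 1 were higher and 7 lower, but the share of all tested genes at that threshold was not computed. The immediate early factors Fos (-0.90), Egr2 (-0.81) and Egr1 (-0.80), the phosphatase Dusp5 (-0.74) and the kinase Pim2 (-0.43) fell. Fos fell from 68.3 ± 1.47 to 36.2 ± 1.30 FPKM (adjusted p 0.00140). Junb was at 2253 ± 258 and 1669 ± 303 FPKM and the STAT3-induced inhibitor Socs3 at 899 ± 101 and 776 ± 75.0 FPKM, and neither passed.

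The transcription factors that act on Csf1r and the other receptor genes had the lowest median of the 5 lists, -0.52, with 6 of 12 tested genes lower, 1 higher and 5 not past. Cebpa, a myeloid factor, fell from 9.59 ± 1.90 to 4.0 ± 0.521 FPKM (limma adjusted p 0.00480), a log2 fold change of -1.07. Cebpd (-0.98), Runx1 (-0.82), Ets2 (-0.61) and Irf8 (-0.57) were also lower, while Maf was higher (0.47). Spi1, which encodes PU.1, was at 75.0 ± 5.90 FPKM in WT against 55.0 ± 12.8 FPKM in PGRN KO, and Cebpb at 1266 ± 61.3 and 1110 ± 274 FPKM, and neither passed.

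Among related ligands, receptor chains and shedding enzymes, 7 of 16 genes were tested, and 1 was higher, 3 lower and 3 not past (median -0.23). Il3ra, the alpha chain that pairs with the beta chains to bind IL-3, was higher, at 15.2 ± 0.533 FPKM in WT against 28.8 ± 8.99 FPKM in PGRN KO (0.84, limma adjusted p 0.0235), with 39.1 FPKM in PGRN KO replicate 6. Its call was lost without any 1 WT library (adjusted p 0.0788 to 0.0843) and with no filter (0.0715). Il3 itself was at 0 in every library. Sdc1, a syndecan that binds IL-34, fell from 61.7 ± 5.86 to 19.0 ± 2.31 FPKM (-1.65, adjusted p 0.00119), while Ptprz1, another IL-34 receptor, was at 0 in every library. Adam17, a protease that sheds CSF1R and other surface proteins, was also lower (-0.39), as was Il4ra (-0.44).

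The regulators of mRNA decay and NF-kB that bear on the ligand genes comprised 14 tested genes, of which 0 were higher and 5 lower by limma, 9 did not pass, and the median was -0.36. At an unadjusted limma p under 0.05, 0 were higher and 8 lower, again without a share of all tested genes to set beside them. Zfp36l2 (-1.01) and Zfp36l1 (-0.80), which bind AU-rich elements, fell, as did Nfkb1 (-0.51), the RNase gene Zc3h12a (-0.39) and Elavl1 (-0.34), which encodes a stabilising AU-rich element binder. Zfp36, the gene of tristetraprolin, was at 351 ± 82.1 and 293 ± 35.3 FPKM, and Nfkbia, an NF-kB inhibitor, at 711 ± 161 and 643 ± 76.4 FPKM. Neither passed, and both had their highest value in WT replicate 2, as Csf2 and Csf3 did.

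**Figure D4:**
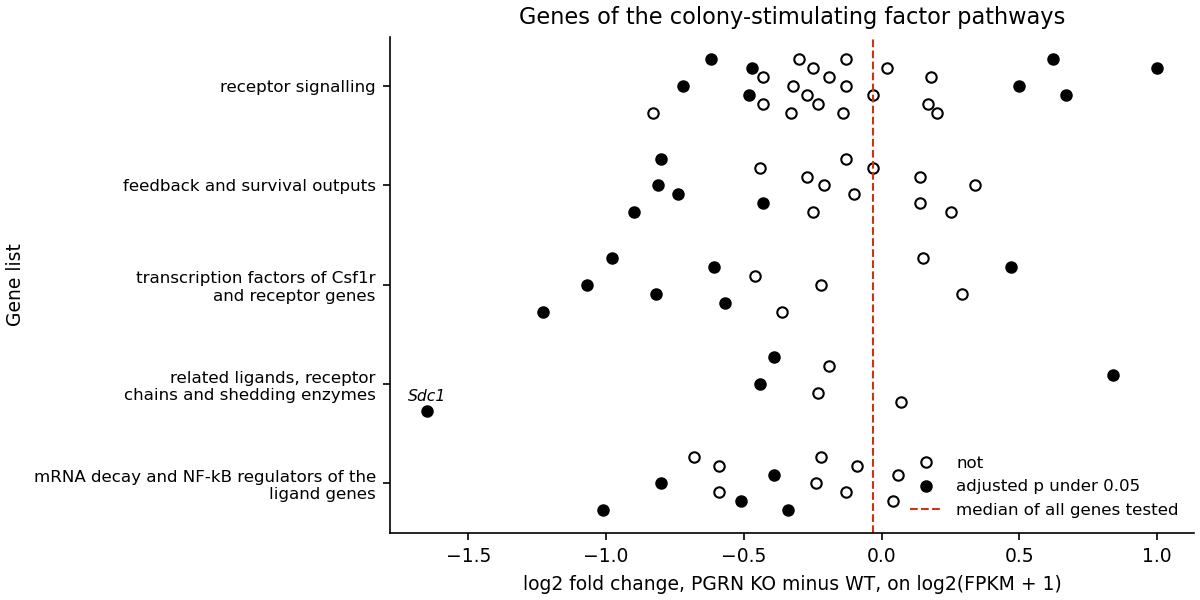
Log2 fold change, PGRN KO minus WT, on the log2(FPKM + 1) scale (x) of the 75 tested genes in 5 lists (y, spread within a list for legibility), filled where the adjusted p was under 0.05. The dashed line is the median of all tested genes, -0.03, and the named point is Sdc1, the lowest of all at -1.65.

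Genes with a pattern most like those of Csf1 and Csf1r were sought over the 6 libraries by the Pearson correlation of log2(FPKM + 1). For Csf1 these were Pam (r = 0.9989), Prmt9 (0.9987) and Snx2 (0.9978). For Csf1r they were Nfam1 (0.9980), Mapkapk3 (0.9977) and Aph1c (0.9966). The 6 points of each correlation fall into the groups of genotype and share libraries, and the values are a description chosen as the highest among 8057 genes. Pam, an enzyme that amidates peptides, was at 0.623, 0.631 and 0.652 FPKM in WT against 1.53, 1.39 and 1.47 FPKM in PGRN KO. Nfam1, a signalling receptor of immune cells, was at 3.55, 3.24 and 3.67 FPKM in WT against 1.77, 2.12 and 1.94 FPKM in PGRN KO.

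Markers of other cells that express these receptors or ligands also moved with genotype in these bulk samples, in which fewer cells of a type and less RNA per cell cannot be told apart. The summed level of 5 B cell markers was 4.70 to 6.06 FPKM in WT against 18.7 to 24.0 FPKM in PGRN KO, and that of 6 mast cell markers was 9.03 to 12.3 and 17.8 to 23.6 FPKM, with 3 genes of each list at 1 FPKM or more. Hdc made up most of the mast cell sum in WT, at 8.43 ± 1.61 and 8.48 ± 1.25 FPKM in the 2 genotypes. The means of the other mast cell markers were higher in PGRN KO, with Tpsb2 at 1.08 ± 0.309 and 5.14 ± 1.31 FPKM. The 5 dendritic cell markers, of which 1 reached 1 FPKM, summed to 27.4 to 34.6 and 15.9 to 19.3 FPKM. Ccr7 made up most of this sum, at 28.9 ± 3.42 and 16.6 ± 1.93 FPKM. Xcr1 (1.16 ± 0.183 and 0.388 ± 0.0633 FPKM) and Flt3 were also lower in PGRN KO. The means of Zbtb46 (0.550 ± 0.0288 and 0.698 ± 0.110 FPKM) and Clec9a were higher. The 4 markers of small peritoneal macrophages and monocytes, of which 2 reached 1 FPKM, summed to 14.6 to 16.0 and 8.75 to 12.9 FPKM. The 2 differed in opposite directions, with Ly6c2 at 12.0 ± 0.594 and 3.39 ± 0.348 FPKM and Plac8 at 2.73 ± 0.212 and 6.51 ± 2.04 FPKM. None of the 8 markers of mesothelial cells and fibroblasts, which also make CSF1, reached 1 FPKM, with Lrrn4 at 0 and sums of 0.989 to 1.1 and 1.84 to 3.31 FPKM. Sums of 6 T cell markers, 3 of them at 1 FPKM or more, were 41.5 to 43.7 and 37.8 to 39.6 FPKM, of which Il7r made up most, at 39.1 ± 0.790 and 33.3 ± 2.60 FPKM. The means of the other 5 were higher in PGRN KO, with Lck at 1.34 ± 0.0451 and 1.91 ± 0.603 FPKM and Cd3d at 0.436 ± 0.151 and 0.933 ± 0.225 FPKM. Those of NK cells (0.182 to 0.306 and 0.267 to 0.412 FPKM) and eosinophils (0 to 0.143 and 0.112 to 0.245 FPKM, with Epx and Prg2 at 0) had no gene at 1 FPKM. The part of these cells in the differences of Csf1, Csf1r, Csf2rb, Csf2rb2 and Csf3 was not tested.

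The stability of each difference was examined under 18 alternatives. Csf1 passed the adjusted threshold in 18 of 18, with log2 fold changes of 1.24 to 1.36. Csf2rb passed in 16, Csf2rb2 and Csf3 in 14 each, and Csf1r in 12, each lower in all 18. Csf2ra passed in 3, Csf3r in 1 and Csf2 in 0, with adjusted p of 0.439 to 0.993 for Csf2.

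**Figure D5:**
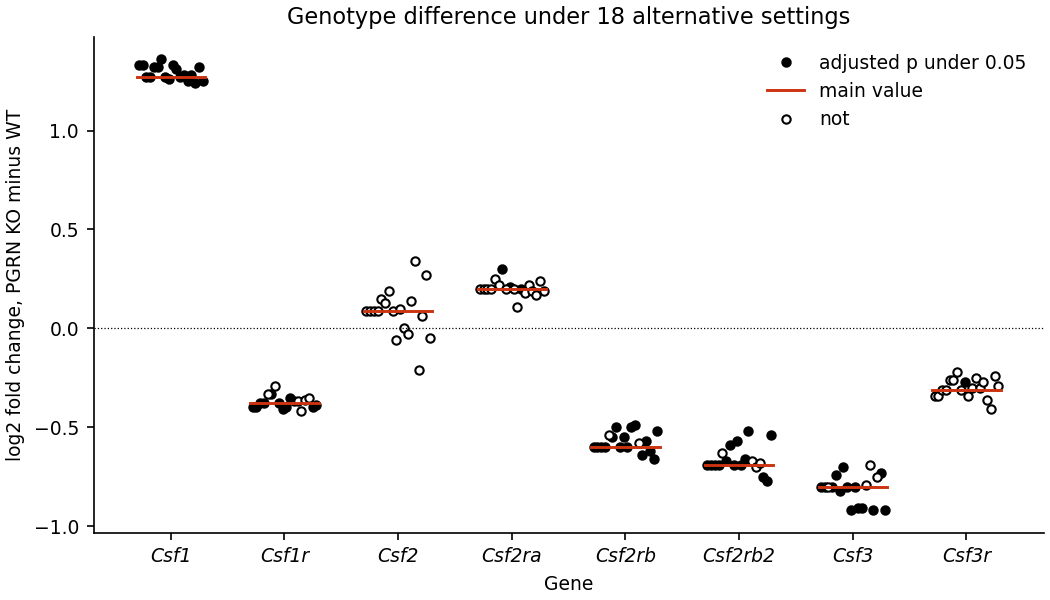
Log2 fold change, PGRN KO minus WT (y), of the 8 tested genes (x) under each of 18 alternative settings, filled where the adjusted p was under 0.05 and open where not, with the red line at the main value. Csf1 stays at 1.24 to 1.36 with every point filled, and only the points of Csf2 lie on both sides of 0.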

How the data were processed

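The deposited table gives FPKM for each gene in each of 6 libraries (3 WT, 3 PGRN KO), which the authors computed from fragments counted per gene, and the submitters' processing notes list CASAVA, HISAT2 2.0.5, featureCounts 1.5.0-p3, DESeq2 1.20.0 and the mouse build mm10 (GRCm38). The text of the study names HTSeq for the counting, and this conflict is unresolved. Libraries were prepared with a NEBNext Ultra kit, and the use of strand in counting is not stated in the sources used here. FPKM times gene length were whole multiples of a step per library (100.0% of values within 0.001), which gave the fragments per library. The library size used by the authors was 0.925 to 1.09 times their sum, so the deposited values were already scaled between libraries.

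The authors called genes with DESeq2 on counts. The deposited values being FPKM, genotypes were compared with limma 3.58.1 (R 4.3.3; linear model, moderation with a mean-variance trend, two-sided) on log2(FPKM + 1), which understates changes of low genes, over genes with a mean of at least 1 FPKM, with Benjamini-Hochberg adjustment and a threshold of 0.05. The test was tried on simulated data first. Ratios were compared by exact permutation tests. Sample groups came from the labels. Nothing states that libraries came from separate animals or cultures, so p-values measure the spread between these libraries, which may be technical. No pair agreed within sampling noise (chi-square per degree of freedom of at least 4.87).

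The members and lists were chosen with earlier results of these data known. Every member is given. List genes are named with their log2 fold change where they passed, with up to 3 of the most abundant that did not. The plan was to give values for at most 4 in each direction of a list, and some lists go past it. For Csf1 and Csf1r the 3 most correlated genes are given, leaving out predicted models. Stat5b is given in addition, beside Stat5a. Values of 2 genes of the lists are not reported here by name, although they are counted in the totals. The sum of both beta chains and the genes sharing sequence were added after the values were seen. Stretches of 31 bases and untranslated regions came from the GENCODE annotation of GRCm38, and promoters from RefSeq. The 95% confidence intervals are those of limma, from the spread between libraries, and the floor for Il34 covers counting error only.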

Additional observations from a re-analysis of the deposited data

How the results depend on the processing

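Alternatives were pseudocounts of 0.1 and 0.01, no filter, a mean FPKM of at least 5, the TPM scale, quantile normalization, the sum of recovered fragments as library size, no variance trend, sample quality weights, limma voom on recovered fragments, a length correction (span 0.5) with and without PGRN KO replicate 6, and leaving out each library. The number of colony-stimulating factor and receptor genes that were higher was 1, and 2 with the sum of fragments, with quality weights and with the length correction without PGRN KO replicate 6, and 1 whichever library was left out. The number that were lower was 4, with 1 on the TPM scale, 3 with no filter, 3 with the sum of fragments, 5 with quality weights, and 0 to 4 with a library left out, with 0 without WT replicate 1. In the pathway lists 6 genes were higher, with 3 under no filter and 10 with quality weights, and 3 to 8 with a library left out. In these lists 23 were lower, with 42 under quality weights and 37 with the length correction without PGRN KO replicate 6, and 11 to 38 with a library left out. Over all genes 2151 were called, 4225 with quality weights, 713 when WT replicate 1 was left out and 3668 when PGRN KO replicate 6 was. Directions turned for Csf2 (-0.06 with quality weights, -0.03 with the length correction without PGRN KO replicate 6, -0.21 to 0.34 with a library left out, negative without WT replicate 3 or PGRN KO replicate 6), Nfkbia (-0.30 to 0.03) and Tyrobp (-0.01 to 0.31), none of them called. The cause of these changes was not tested. Of the 5 ratios 4 kept their direction with each library left out, and Csf3r/Csf1r ranged from -0.08 to 0.16. Without PGRN KO replicate 6 the log2 differences were 1.72 for Csf1/Csf1r, 0.71 for Csf2ra/Csf2rb and -0.02 for Csf2rb2/Csf2rb. They were -0.12 for Csf2rb/Csf1r and 0.09 for Csf3r/Csf1r. The tested genes had at least 613 fragments in every library, and depth limits the statement on Il34, which had 0. No paired analysis was possible because the replicate numbers of WT (1 to 3) and PGRN KO (4 to 6) are not shared.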
